A study of Mus musculus with 22 samples.

Results

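Livers of male mice lacking Nat1 and Nat2 (KO) were compared with livers of wild-type males (WT), all on a high-fat, high-sucrose diet (HFHS). The comparison used the first-batch array of every such animal, 3 KO and 3 WT, which are 6 of the 22 arrays of the series, and the difference is KO minus WT throughout. All 6 animals were C57BL/6 males of 12 weeks of age at the start of housing, kept singly, and had received the HFHS diet (45% of energy from fat, 35% from carbohydrate) for 12 weeks. The WT animals were littermate controls. The labels call the knockout Nat1/2 and name no tissue-restricted driver, and the feeding text can also be read as regular chow for 12 weeks before the HFHS diet. Animals 1 to 3 of each genotype are separate mice, and a second array of WT 1 and of KO 3, from the second batch, served as a technical repeat. Males on regular chow (4 KO and 4 WT, second batch) and HFHS females (3 KO and 3 WT, first batch) served for comparison. The chow gave 13.5% of energy from fat, 25.2% from protein and 61.3% from carbohydrate. Both groups were 12 weeks old at the start and received their diet for 12 weeks. The series title names the metabolism of energy and fatty acid oxidation as its subject.

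Arylamine N-acetyltransferases move an acetyl group from acetyl-CoA to aromatic amines and hydrazines, and in the liver they take part in the clearance of drugs and carcinogens. Mouse Nat2 is the counterpart of human NAT1, an enzyme that also breaks down acetyl-CoA in the presence of a folate catabolite. The liver draws on the same acetyl-CoA for cholesterol and fatty acid synthesis and forms it again by mitochondrial oxidation of fatty acids. The liver also makes hepcidin, the hormone that closes the iron exporter ferroportin and so sets the plasma iron level.

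Values are log2 expression values, so a difference of 1 is a 2-fold change. Medians of the 6 arrays lay between 4.55 and 4.596, and 13871 genes passed a filter on low signal. The hepatocyte genes Alb (13.3 to 13.5) and Ttr (13.1 to 13.2) were high in all 6 livers, while the cholangiocyte marker Krt19 stayed between 3.05 and 3.41. Other markers of these lists differed, with the hepatocyte gene Ass1 low (3.32 to 4.99). The cholangiocyte genes Krt7 (4.41 to 5.06) and Sox9 (5.15 to 5.73) passed the filter. In the 6 males Xist was between 3.48 and 4.28 and Uty between 6.90 and 7.38, against at least 10.4 and at most 3.46 in the females of the series. In bulk tissue, fewer cells of a type and less RNA per cell cannot be told apart. The median standard error of the difference was 0.17, which gives a 95% interval of about 0.36 to either side. A gene was called at a limma p-value below 0.05 after Benjamini-Hochberg adjustment over all genes tested. By that rule 2 genes (0.0144% of those tested) were higher and 3 (0.0216%) lower in KO.

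The 4 sequences that follow are the 250 bases before the gene start, from RefSeq (GRCm38.p6), for genes named in the results. They are written 5′ to 3′ in the direction of the gene. Hepcidin (Hamp) and its near copy Hamp2 had the lowest KO values relative to WT of the iron genes, and the capitals mark a STAT element (TTCNNNGAA) and, further from the start, a BMP-responsive element (GGCGCC). Bst2 fell in KO, and the capitals mark its interferon-stimulated response elements, of which a pair overlap. Hmgcs1, which was not called, is shown because it is the cholesterol synthesis gene whose window held a sterol regulatory element (TCACNCCAC), marked in capitals.
Hamp, chr7:30944030-30944279, minus strand: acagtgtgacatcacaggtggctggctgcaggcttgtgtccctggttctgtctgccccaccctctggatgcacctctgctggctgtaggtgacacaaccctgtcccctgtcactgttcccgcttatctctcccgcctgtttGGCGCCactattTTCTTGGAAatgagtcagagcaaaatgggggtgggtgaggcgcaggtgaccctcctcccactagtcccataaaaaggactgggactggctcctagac
Hamp2, chr7:30924182-30924431, minus strand: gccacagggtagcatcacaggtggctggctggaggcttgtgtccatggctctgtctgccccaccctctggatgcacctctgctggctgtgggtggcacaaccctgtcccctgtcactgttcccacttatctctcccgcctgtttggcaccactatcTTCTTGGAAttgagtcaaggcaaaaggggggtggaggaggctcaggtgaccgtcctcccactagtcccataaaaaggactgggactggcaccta
Bst2, chr8:71537473-71537722, minus strand: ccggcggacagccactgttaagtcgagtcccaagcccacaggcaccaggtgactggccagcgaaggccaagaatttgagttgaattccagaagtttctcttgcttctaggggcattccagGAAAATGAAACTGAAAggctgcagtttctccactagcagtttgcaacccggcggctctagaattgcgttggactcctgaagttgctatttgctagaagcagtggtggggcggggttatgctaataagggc
Hmgcs1, chr13:119690101-119690350, plus strand: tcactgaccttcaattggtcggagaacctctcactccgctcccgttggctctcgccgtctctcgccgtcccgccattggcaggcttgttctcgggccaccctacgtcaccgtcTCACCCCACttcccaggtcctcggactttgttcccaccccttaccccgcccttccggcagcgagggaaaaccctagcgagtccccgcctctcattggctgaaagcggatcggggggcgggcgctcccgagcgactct
Both strands were searched. Of 32851 windows of the same length, 7.02% held the STAT element, 9.59% the BMP element, 2.98% the interferon element and 1.05% the sterol element. A match describes letters only. In Hamp the STAT element began 97 bases and the BMP element 109 bases before the start, and in Hamp2 the STAT element began 94 bases before it with no match to GGCGCC. The Hamp and Hamp2 windows were identical at 227 of 247 aligned bases (91.9%).

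The targeted genes were read first. Nat2 (chr8:67494875-67502644) was at 6.96, 7.16 and 6.87 in WT 1 to 3 and at 4.07, 3.495 and 3.97 in KO 1 to 3. All KO livers lay below all WT livers, with a difference of −3.15 ± 0.16 (SE, limma adjusted p = 7.30e-10). The KO values lay below the table median of 4.57, close to background, so no fold is given. The second arrays gave 6.59 for WT 1 and 3.86 for KO 3. Nat1 was at 3.34, 2.87 and 3.66 in WT and 2.40, 2.85 and 2.53 in KO, a signal too low to enter the test, with a difference of −0.70. Nat3, the family member that was not targeted, was at 3.62, 3.34 and 3.16 in WT and 4.05, 4.25 and 3.89 in KO, a difference of 0.70. The groups did not overlap for either gene, and the two-sided exact permutation test gave p = 0.1 for each, the smallest that 20 arrangements of 3 against 3 animals allow. No source used here places the probe sets relative to the deleted bases.

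Bst2 encodes tetherin, an interferon-induced membrane protein that holds budding viruses at the cell surface. It was at 11.2, 11.1 and 10.8 in WT and at 8.78, 8.94 and 8.53 in KO. Its KO livers fell 4.89-fold below WT (−2.29 ± 0.30 SE, limma adjusted p = 0.00194), with a gap between the groups many times the spread within them. The second arrays repeated it, at 11.1 in WT 1 and 8.08 in KO 3. Of 31 tested interferon response genes, Bst2 was the one called; 18 were positive and the median was 0.04 (0.003 over all genes tested). Ifit2, an interferon-induced inhibitor of translation, was at 4.17, 3.96 and 4.10 in WT and 4.73, 4.56 and 4.96 in KO (0.67, adjusted p = 0.705), with second arrays in the opposite order (4.23 and 4.13). Stat2, which carries the interferon signal to the nucleus, had a difference of 0.38 and the guanylate-binding protein Gbp3 one of −0.54. Of the 24 members with a sequence window, 12 held the interferon element, Stat2 and Gbp3 among them.

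The other called genes were Zfp963, Ocel1 and Dcpp3. The zinc finger gene Zfp963 was at 5.64, 5.54 and 5.47 in WT and 6.36, 6.93 and 6.62 in KO, and rose 2.12-fold (1.09 ± 0.17 SE, limma adjusted p = 0.0211). Ocel1, a gene with an occludin-like domain, was at 5.78, 5.51 and 5.67 in WT and 6.77, 6.66 and 7.28 in KO, and rose 2.37-fold (1.25, adjusted p = 0.0358). Second arrays kept both groups apart, with Zfp963 at 5.58 and 6.86 and Ocel1 at 5.81 and 6.72 in WT 1 and KO 3. Dcpp3, of the demilune cell and parotid protein family, was at 4.73, 5.27 and 4.64 in WT and 3.74, 3.61 and 3.42 in KO, and fell by 1.29 (adjusted p = 0.0358). Its signal was near the table median, and the second arrays turned the order, with KO 3 at 4.44 above WT 1 at 4.23. With the second arrays in place of the first the calls of Dcpp3 (adjusted p = 0.999) and Ocel1 (0.0967) ended, and a fit to these 6 arrays alone kept Nat2 and Bst2 and left Zfp963, Ocel1 and Dcpp3 at 0.355.

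**Figure D1:**
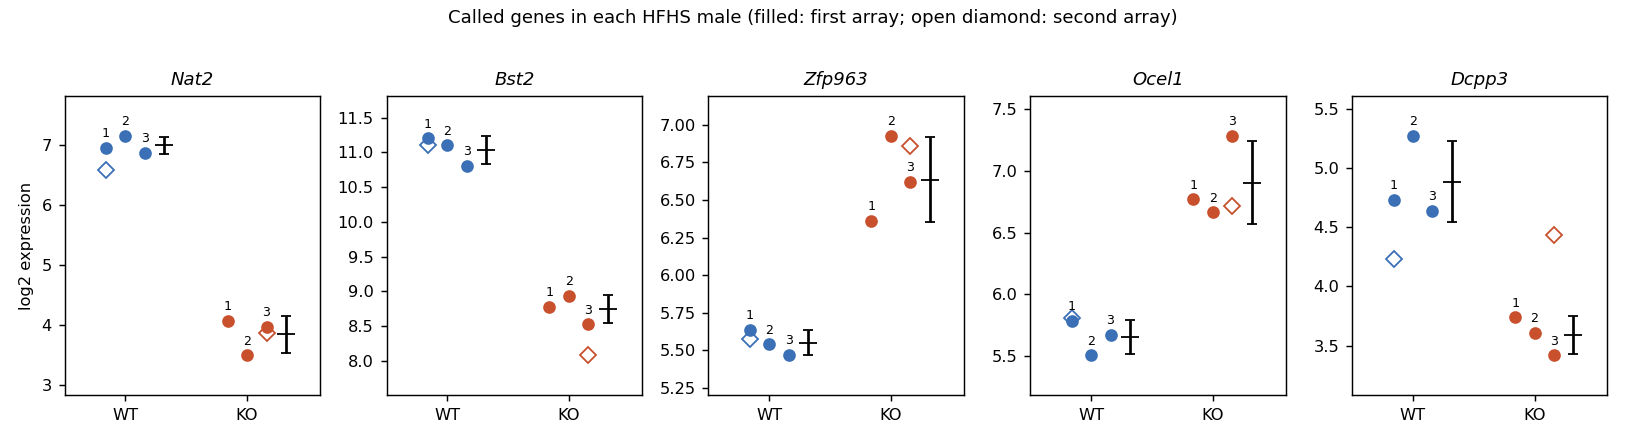
Log2 expression of the 5 called genes in each HFHS male, with numbered filled points for the first arrays, open diamonds for the second arrays of WT 1 and KO 3, and bars for the mean and SD of the 3 first arrays of a genotype. First arrays separate KO from WT for all 5 genes, and the second arrays do so except for Dcpp3, where KO 3 (4.44) lies above WT 1 (4.23).

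Of the 5 called genes, 4 lie on chromosome 8 within 5 Mb of the start of Nat2. Zfp963 lies 2.25 Mb, Ocel1 3.88 Mb and Bst2 4.04 Mb from it, all on the same side. Nearly all tested genes within 5 Mb lie on that side, since only Msmo1, Klhl2, Tmem192 and Naf1 start on the other. Dcpp3 is on chromosome 17. Within 5 Mb, 111 genes were tested and 23 had KO and WT groups that did not overlap (20.7%; 13 higher and 10 lower), against 10.2% over all genes (5.39% higher and 4.77% lower). On the rest of chromosome 8 the share was 10.6%, and on the other 19 chromosomes it ran from 8.51% to 12.3%. An unadjusted limma p below 0.05 was reached by 17.1% of the 111 neighbours and 5.97% of all genes.

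Zfp868, another zinc finger gene of this stretch, was at 4.88, 5.01 and 5.04 in WT and 5.70, 6.01 and 5.75 in KO (0.84 ± 0.16 SE, adjusted p = 0.102). Mvb12a, a subunit of the ESCRT-I complex that sorts membrane proteins to lysosomes, was at 7.41, 7.33 and 7.47 in WT and 7.85, 7.92 and 8.06 in KO (0.54 ± 0.10 SE, adjusted p = 0.106). Neither passed the test here, and both did in chow males (0.89 and 0.61, limma adjusted p = 0.00985 and 0.00757) and in HFHS females (0.99 and 0.62, adjusted p = 0.0171 and 0.0221). Other neighbours whose groups did not overlap were the vesicular monoamine transporter Slc18a1 (−0.79), the RNA-binding protein Lsm4 (−0.66), the phosphodiesterase Pde4c (0.65), the adaptor subunit Ap1m1 (0.54), the lysosome positioning subunit Borcs8 (0.52) and Tm6sf2 (0.41), which takes part in lipoprotein secretion. None of these 6 was called (adjusted p between 0.339 and 0.766).

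The chow males and the HFHS females share no animal with the HFHS males. Of the 22 neighbours that did not overlap, Nat2 aside, 20 had the same sign in chow males, 19 in females and 18 in both. Of the 1385 non-overlapping genes elsewhere, 634 (45.8%) had the same sign in chow males and 690 (49.8%) in females. Over all genes tested the shares were 47.9% and 49.4%. Bst2 fell and Zfp963 rose in each of these groups too, with differences of −1.92 and −2.46 for Bst2 and 1.61 and 1.18 for Zfp963 in chow males and females (limma adjusted p = 0.00205, 4.32e-04, 9.86e-06 and 0.00508). Ocel1 was positive in both (0.81 and 0.76) and passed in neither (adjusted p = 0.282 and 0.755). Dcpp3 was at −0.56 and −0.11 there (adjusted p = 0.9901 and 0.999). What separates this stretch of the chromosome was not tested.

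**Figure D2:**
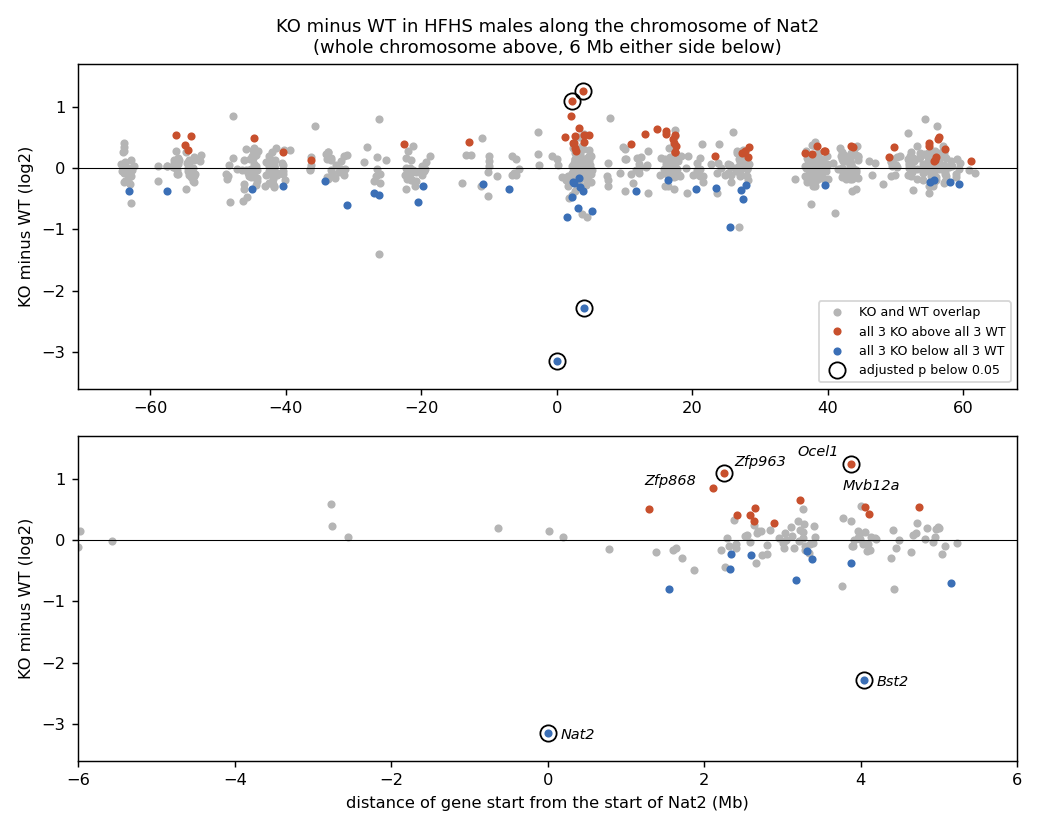
KO minus WT difference (log2) of every tested gene on the chromosome of Nat2 against the distance of its start from that of Nat2 in Mb, over the whole chromosome above and over 6 Mb either side below. Red and blue points are genes whose 3 KO livers all lay above or below the 3 WT livers, and rings mark called genes; the 4 rings lie between 0 and 4.04 Mb.

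Among the 20 uncalled genes with the smallest p were Slc25a37, Hamp, Tfrc and Hamp2, which were grouped as iron genes after their ranks were seen. Slc25a37 is not a member of the iron list counted below. Hepcidin was at 12.9, 12.7 and 13.1 in WT and at 12.4, 9.90 and 7.76 in KO 1 to 3. The WT livers were within 0.5 of each other, KO 1 lay just below them, and KO 2 and KO 3 were far lower. The difference in Hamp was −2.89 ± 0.63 (SE; 95% interval −4.21 to −1.58) and did not pass the test (adjusted p = 0.227). That SE rests on a spread shared by all 6 groups, while the SD of Hamp was 2.30 in these KO livers and 0.21 in WT. It understates the spread among the KO livers, so the interval is too narrow for them. In the fit to the 6 HFHS male arrays alone the limma adjusted p was 0.984. Hamp2 is a close copy of Hamp, so its value is uncertain, since probes may not tell the transcripts apart. It was at 10.6, 10.9 and 11.3 in WT and 8.56, 9.15 and 5.53 in KO (−3.15 ± 0.77 SE, adjusted p = 0.338). The SD of Hamp2 was 1.94 in KO and 0.34 in WT, so the same limit holds for its SE. The second array of KO 3 gave 8.16 for Hamp and 5.72 for Hamp2, and that of WT 1 gave 12.9 and 10.9.

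Hamp varied less within the other groups of the series, while Hamp2 was low and spread in chow males of both genotypes. The WT and KO means were 13.14 ± 0.06 and 13.17 ± 0.08 for chow males (SD, n = 4 per genotype) and 12.74 ± 0.35 and 12.94 ± 0.13 for HFHS females (SD, n = 3 per genotype). For Hamp2 they were 9.05 ± 1.30 and 8.66 ± 1.03 in chow males, near the levels of HFHS KO 1 and KO 2, and 11.5 ± 0.58 and 11.98 ± 0.03 in females, with the same n. The genotype difference in Hamp of HFHS males departed from that of chow males by −2.92 (interaction adjusted p = 0.754) and from that of females by −3.09 (adjusted p = 0.933), and neither passed. Hamp was called with KO 1 left out (−4.07, adjusted p = 1.21e-05, with both interactions called as well) and with all 22 arrays in a fit with a batch term and an animal block (−3.20, adjusted p = 0.0329). The latter fit holds KO 3, the liver with the lowest Hamp, on both of its arrays. It took a correlation of 0.228 between arrays of an animal, so KO 3 weighed more than KO 1 or KO 2, and that call adds no animal. With KO 3 left out of the main fit the difference was −1.77. Over the alternatives the adjusted p of Hamp ran from 1.21e-05 to 0.984.

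Transferrin receptor 1 (Tfrc), by which cells take up transferrin-bound iron, was at 5.81, 6.06 and 5.63 in WT and 6.57, 7.24 and 6.61 in KO. All KO livers lay above all WT livers, by 0.97 ± 0.21 (SE, adjusted p = 0.227), and the second arrays were at 5.20 and 6.84. In the fit to all 22 arrays Tfrc was called (1.13, adjusted p = 0.0329). Its difference was 0.24 in chow males and 0.06 in females. Mitoferrin-1 (Slc25a37), which carries iron into mitochondria and is most active in red cell precursors, was at 7.67, 7.44 and 7.79 in WT and 8.09, 8.19 and 8.61 in KO (0.67 ± 0.14 SE, adjusted p = 0.198).

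Of the regulators of hepcidin, hemojuvelin (Hjv), a BMP co-receptor, was at 8.20, 7.97 and 7.86 in WT and 8.59, 8.42 and 8.36 in KO (0.45, adjusted p = 0.695). Transferrin receptor 2 (Tfr2), a sensor of transferrin saturation, had a difference of 0.56, with KO 3 highest at 9.07. The second arrays of WT 1 and KO 3 turned the order of Hjv (8.55 and 7.89) and left Tfr2 level (8.66 and 8.65). The ligand Bmp6 (−0.30) and the BMP target genes Id1 (−0.55) and Smad7 (−0.34) had negative differences with overlapping groups. In chow males, where Hamp differed by 0.03, Id1 was at −0.58, Smad7 at −0.33 and Bmp6 at 0.04. In females they were at −0.23, 0.05 and −0.02. In the same second arrays Bmp6 was at 5.36 and 4.36, Smad7 at 5.02 and 4.78 and Id1 at 5.24 and 5.18. The exporter ferroportin (Slc40a1, −0.12), the ferritin heavy chain (Fth1, 0.03) and the iron regulatory proteins Aco1 (−0.06) and Ireb2 (−0.17) lay near 0. Of 17 tested iron genes 8 were positive, none was called, 4 had all KO livers above WT (5.39% over all genes) and 2 all below (4.77%), and the median was −0.06.

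Erythroid markers differed among the same animals. The beta-globin gene Hbb-bt was at 5.33, 3.68 and 6.45 in WT and 5.95, 8.18 and 8.32 in KO, so KO 2 and KO 3 were above the other 4 livers (2.33 ± 0.63 SE, adjusted p = 0.454). Alas2, the first enzyme of heme synthesis in red cells, was at 7.99, 7.69 and 8.04 in WT and 7.07, 8.43 and 8.86 in KO. The band 3 gene Slc4a1 was at 3.86 to 3.99 in WT, 4.19 and 3.96 in KO 1 and KO 2 and 5.65 in KO 3. All 3 tested markers of the list were positive (median 0.67), none was called, and their summed linear signal ran from 234 to 366 in WT and from 215 to 834 in KO. The 2 livers with the highest Hbb-bt were thus the 2 with the lowest Hamp, and the part of red cell RNA in the iron genes was not tested.

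**Figure D3:**
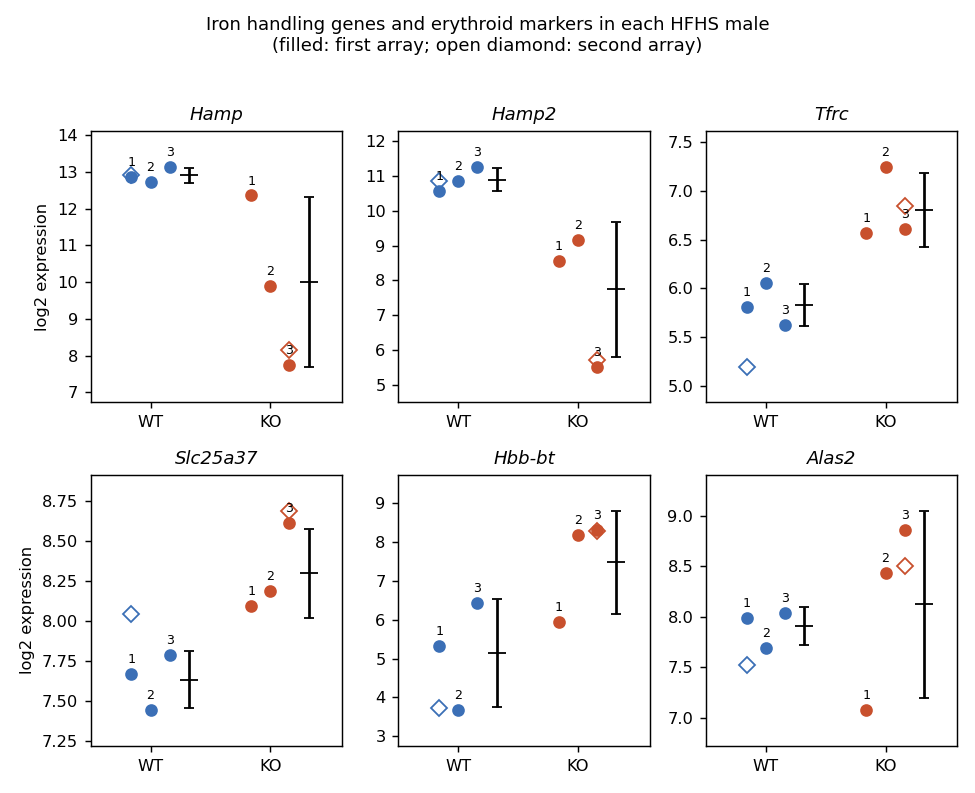
Log2 expression of 4 iron handling genes and the erythroid genes Hbb-bt and Alas2 in each HFHS male, with filled numbered points for first arrays, open diamonds for second arrays of WT 1 and KO 3, and bars for mean and SD. Hamp runs from 12.4 in KO 1 to 7.76 in KO 3 while the WT livers lie between 12.7 and 13.1.

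Cholesterol synthesis genes mostly had positive differences, of which none passed the test. Of 18 tested members 17 were positive (50.6% over all genes) with a median of 0.39, and in 2 all KO livers lay above all WT livers (5.39% over all genes). Squalene epoxidase (Sqle), an oxygen-dependent step of the pathway, was at 5.70, 6.30 and 4.73 in WT and 8.59, 4.94 and 7.71 in KO. KO 1 and KO 3 were above all WT livers and KO 2 was within their range, so the difference of 1.501 had an interval from 0.06 to 2.95 (adjusted p = 0.821). Lanosterol synthase (Lss), which closes the sterol rings, was at 5.81, 5.75 and 5.09 in WT and 6.77, 6.02 and 6.32 in KO (0.82 ± 0.27 SE, adjusted p = 0.705). Mvd, the mevalonate decarboxylase, was the other member without overlap (0.41).

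Hmgcs1, which makes HMG-CoA, was at 10.0, 10.1 and 8.88 in WT and 11.4, 9.72 and 9.88 in KO (0.66 ± 0.40 SE), so KO 1 stood above and WT 3 below the other 4 livers. The other enzymes Dhcr7 (0.64), Nsdhl (0.60), Msmo1 (0.58), Cyp51 (0.51), Fdft1 (0.43), Pmvk (0.36), Tm7sf2 (0.33), Hsd17b7 (0.30), Mvk (0.25), Idi1 (0.19), Fdps (0.12), Sc5d (0.05), Ebp (0.05) and Ggps1 (−0.04) all had overlapping groups. The mean over members, relative to the mean of the 6 arrays, was −0.14, 0.02 and −0.52 in WT and 0.72, −0.29 and 0.21 in KO, so KO 2 lay below WT 1 and WT 2. Without KO 1 the median of the list was 0.17, and Cyp51, Pmvk, Hsd17b7 and Sc5d turned negative. In chow males 1 of the 18 was positive (median −0.26) and in females 8 (−0.01). Of 15 members with a sequence window, Hmgcs1 alone held the sterol element. The sterol regulators Srebf2 (0.42; all KO above all WT) and Insig1 (0.54) were also positive and not called. Their list of sterol sensing and uptake genes was balanced, with 6 of 12 positive and a median of 0.02. Its most negative member was Mbtps2 (−0.24), and 1 member had all KO livers below all WT livers.

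Of 22 de novo lipogenesis genes 18 were positive with a median of 0.23, and none was called. Liver pyruvate kinase (Pklr), which feeds glycolytic carbon into the pathway, was at 9.91, 9.86 and 9.92 in WT and 10.35, 10.05 and 10.54 in KO (0.41 ± 0.15 SE, adjusted p = 0.712). The second arrays of Pklr were at 10.7 in WT 1 and 10.4 in KO 3, the opposite order. ATP citrate lyase (Acly), which makes cytosolic acetyl-CoA, was at 8.77, 8.89 and 8.17 in WT and 9.99, 9.09 and 8.76 in KO (0.67 ± 0.27 SE). Fatty acid synthase (Fasn) was at 8.72, 9.40 and 8.16 in WT and 10.3, 9.03 and 8.66 in KO (0.56 ± 0.33 SE). As in cholesterol synthesis, KO 1 was the highest liver for Acly and Fasn.

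Further lipogenic genes were the acetyl-CoA synthetase Acss2 (0.49), the acyltransferase Gpam (0.52), Pnpla3 (0.41), the carboxylases Acacb (0.39) and Acaca (0.36), the regulator Srebf1 (0.31), the elongase Elovl6 (0.26), the citrate carrier Slc25a1 (0.24; all KO above all WT) and Mid1ip1 (0.22). Fads1 (0.11), Mlxipl (0.10), Dgat2 (0.06), Elovl5 (0.06), Fads2 (0.05), Thrsp (0.01), Agpat2 (−0.03), Scd1 (−0.05), Me1 (−0.08) and Lpin1 (−0.16) lay nearer 0. Lpin1 was spread from 8.28 in WT 1 to 10.505 in WT 3 and from 8.38 in KO 1 to 10.3 in KO 3. Without KO 1 the list median was 0.08. In the second arrays KO 3 minus WT 1 had a median of −0.25 over the 22 genes, against 0.10 in the first arrays of the same animals.

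Mitochondrial fatty acid oxidation, the process named in the series title, showed small differences. Of 21 tested genes 6 were positive and 15 negative, the median was −0.09, none was called, and in 4 all KO livers lay below all WT livers (4.77% over all genes). The gene with the most negative difference was Etfa, the alpha subunit of the flavoprotein that takes electrons from acyl-CoA dehydrogenases, at 9.59, 9.63 and 9.55 in WT and 9.09, 9.31 and 9.19 in KO (−0.39 ± 0.13 SE, 95% interval −0.67 to −0.11, adjusted p = 0.705). The second arrays of Etfa were at 8.98 in WT 1 and 9.14 in KO 3. The enoyl-CoA isomerase Eci1 was at 8.90, 8.96 and 9.13 in WT and 8.83, 8.70 and 8.53 in KO (−0.31), and its second arrays kept that order (8.49 and 7.77). The trifunctional protein subunit Hadhb (−0.33) and the carnitine carrier Slc25a20 (−0.20) were the other members without overlap.

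Cpt1a, the carnitine palmitoyltransferase that controls entry of fatty acids into mitochondria, was at 10.0, 10.1 and 10.3 in WT and 10.1, 10.0 and 10.3 in KO, with a difference of 0.01 (95% interval −0.26 to 0.29). The remaining oxidation genes were Acot2 (0.42), Acads (0.19), Acadvl (0.15), Echs1 (0.04), Acad11 (0.001), Hadh (−0.03), Acaa2 (−0.03), Acad10 (−0.05), Hadha (−0.05), Decr1 (−0.09), Etfb (−0.10), Acadm (−0.10), Cpt2 (−0.14), Acadl (−0.14), Etfdh (−0.19) and Eci2 (−0.23). For 18 of the 21 genes the 95% interval lay within a 1.5-fold change in either direction, and for all 21 within a 2-fold change. For 9 of the 22 lipogenesis genes and 4 of the 18 cholesterol synthesis genes the interval lay within 1.5-fold.

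**Figure D4:**
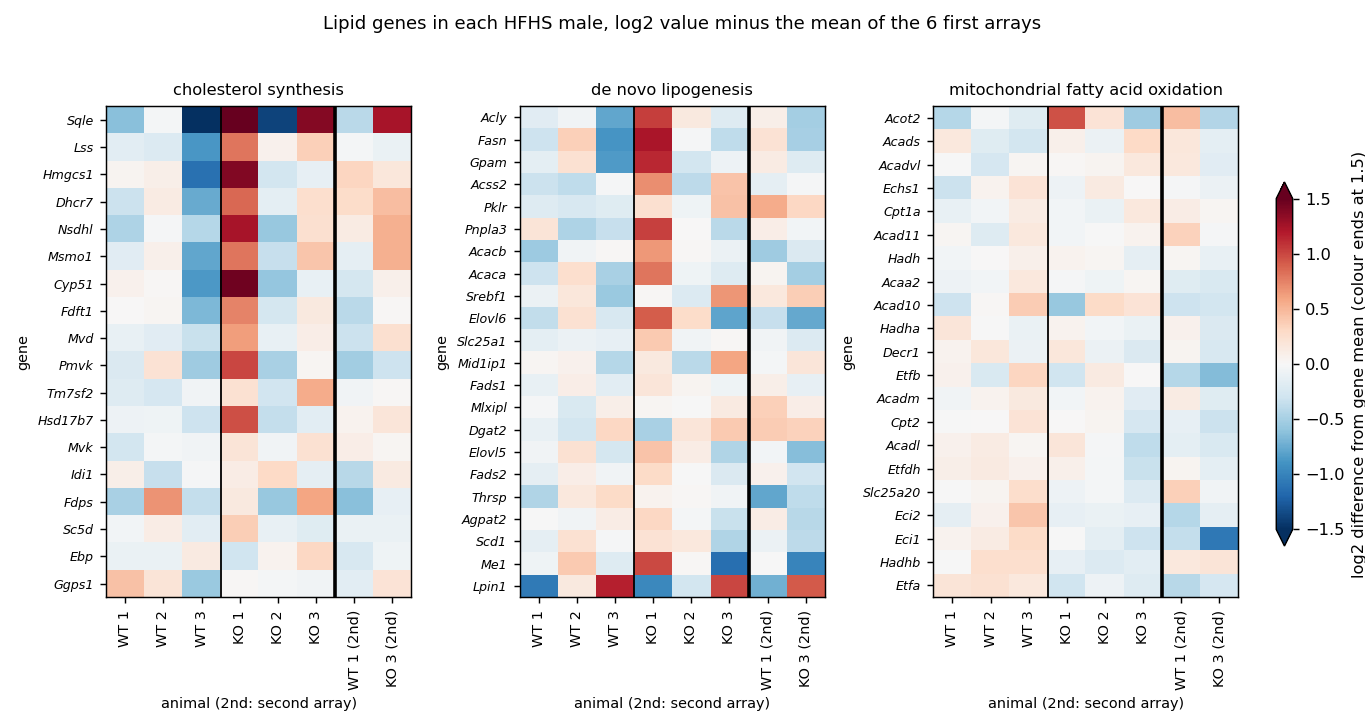
Log2 value minus the gene's mean over the 6 first arrays, in colour, for the tested cholesterol synthesis, de novo lipogenesis and mitochondrial fatty acid oxidation genes (rows) in each HFHS male (columns), with the second arrays of WT 1 and KO 3 at the right. KO 1 has the highest mean over cholesterol synthesis genes (0.72) and WT 3 the lowest (−0.52), and the oxidation genes are paler, with animal means between −0.10 and 0.13.

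Peroxisomal and microsomal oxidation had 6 of 21 genes positive (median −0.07). Cyp4a10, a fatty acid omega-hydroxylase and target of PPAR alpha, was at 10.6, 10.7 and 11.1 in WT and 10.0, 10.49 and 9.16 in KO (−0.89 ± 0.30 SE, adjusted p = 0.705). Of 64 respiratory chain and ATP synthase genes 10 were positive and 54 negative. Their median was −0.10, none was called, and 55 had an interval within 1.5-fold. Ndufab1, the mitochondrial acyl carrier protein, was at 7.68, 7.47 and 7.27 in WT and 7.17, 6.83 and 6.74 in KO (−0.56), while the cytochrome oxidase subunit Cox7b was at 3.64, 3.54 and 3.77 in WT and 3.83, 4.50 and 4.59 in KO (0.66). Second arrays turned the order of both, with Ndufab1 at 7.10 and 7.37 and Cox7b at 4.62 and 3.61 in WT 1 and KO 3. The animal mean of the chain genes was lowest in KO 3 (−0.14) and between −0.03 and 0.11 in the other 5 livers.

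Stress and acute phase lists were positive on balance, apart from heat shock genes (5 of 10 positive, median 0.001). Of 28 endoplasmic reticulum and integrated stress genes 21 were positive (median 0.14), of 26 acute phase genes 21 (0.25) and of 19 immediate early genes 14 (0.23), with none called in any of them. In chow males 23, 5 and 7 members of these lists were positive (medians 0.17, −0.23 and −0.11), and in females 14, 13 and 11. Sesn2, a sestrin that restrains mTORC1, was at 4.75, 5.05 and 4.40 in WT and 5.15, 5.78 and 5.57 in KO (0.77 ± 0.26 SE, adjusted p = 0.705), with second arrays in the opposite order (4.95 and 4.69). Mthfd2, the mitochondrial folate enzyme, was at 3.73, 4.28 and 3.66 in WT and 4.75, 4.50 and 4.64 in KO (0.74 ± 0.20 SE, adjusted p = 0.446). Serum amyloid P (Apcs) was at 7.77, 7.97 and 7.66 in WT and 8.74, 8.15 and 9.05 in KO (0.85 ± 0.35 SE, adjusted p = 0.766), with second arrays at 7.63 and 9.10. Hemopexin (Hpx, 0.36), which binds free heme, and Serpina3n (0.34) also had all KO above all WT. Saa3 had all KO below all WT (−0.44).

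Enzymes of foreign compound metabolism other than Nat2 did not pass the test. Of 31 cytochrome P450 and receptor genes 9 were positive (median −0.11) and of 36 conjugating enzymes 12 (−0.16). Cyp2b10, an inducible target of the receptor CAR, was at 5.69, 5.88 and 5.03 in WT and 4.33, 4.29 and 4.76 in KO (−1.07 ± 0.42 SE, adjusted p = 0.766). Its second arrays turned the order, at 4.77 in WT 1 and 5.12 in KO 3. The glutathione transferases Gstt2 (−0.38; all KO below all WT) and Gstp1 (0.60) and the glucuronosyltransferase Ugt2b5 (−0.47) had smaller differences. All 10 periportal hepatocyte genes were negative (median −0.12; 50.6% positive over all genes) with overlapping groups throughout. Their animal means were 0.03, 0.06 and 0.125 in WT and −0.33, 0.12 and −0.01 in KO, so KO 1 was the low liver. The second arrays of WT 1 and KO 3 were both at −0.002.

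**Figure D5:**
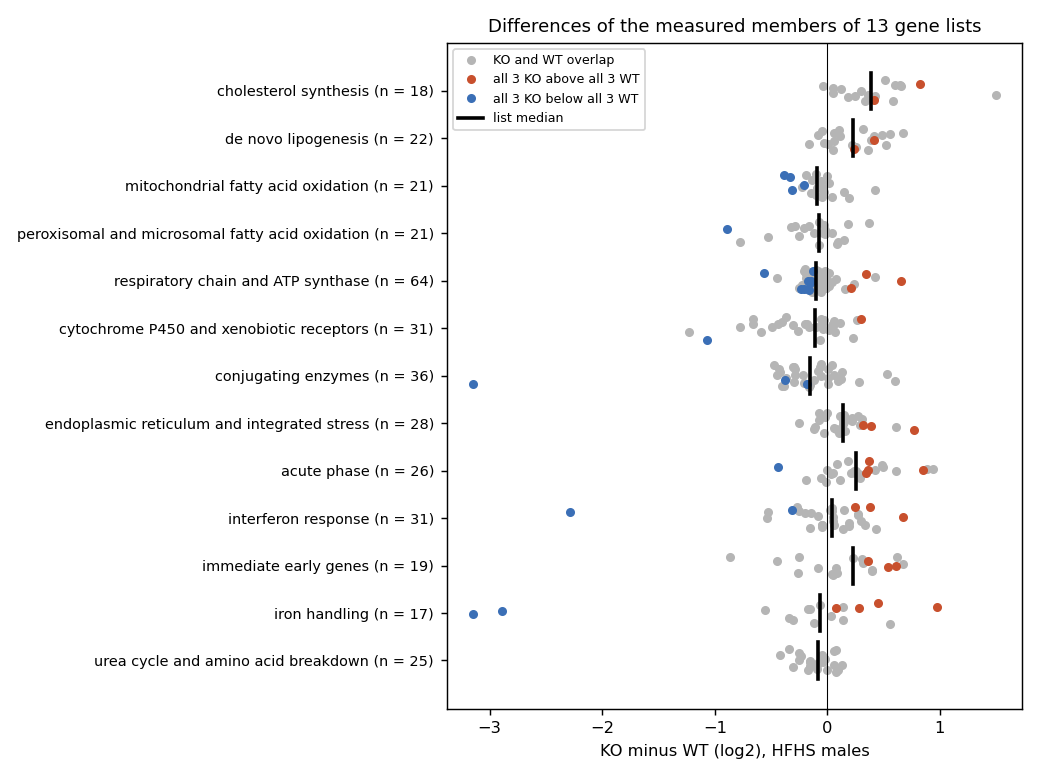
KO minus WT difference (log2) of each tested member of 13 gene lists, 1 row per list, with the list median as a black bar and members whose groups did not overlap in red (KO above) or blue (KO below). Medians run from 0.39 for cholesterol synthesis to −0.16 for conjugating enzymes, and the points farthest to the left are Nat2 (−3.15), Hamp2 (−3.15), Hamp (−2.89) and Bst2 (−2.29).

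KO 3 stood apart from the other livers. In 60 genes it differed from all 5 others by more than 1, against 4 to 28 for the other animals, and in 26 of the 60 its second array did so too. Hsd3b5, a steroid dehydrogenase of male liver, was at 3.22, 1.94 and 2.75 in WT, at 2.58 and 2.35 in KO 1 and KO 2, and at 7.54 in KO 3 (8.001 on its second array). Hsd3b5 WT and KO means were 7.54 ± 1.69 and 8.33 ± 0.86 for chow males (SD, n = 4 per genotype) and 2.29 ± 0.33 and 2.38 ± 0.15 for HFHS females (SD, n = 3 per genotype). The male-biased Serpina1e was at 12.7 in KO 3 and between 8.53 and 10.8 in the other 5, and the female-biased Cyp2b13 was at 5.18 in KO 3 and between 6.93 and 8.88 in them. Cidec, a lipid droplet protein, was at 5.71 in KO 3 and between 7.42 and 9.80 in the others. The animal mean over 16 male-biased genes was 0.94 in KO 3 and between −0.51 and 0.29 in the other 5, and over 16 female-biased genes it was −0.45 against −0.13 to 0.22. Not every member went this way. The male-biased Elovl3 was lowest in KO 3 (9.35), and Cyp2d9 (9.40) and Cyp4a12a (5.94) lay within the range of the other livers. So did the female-biased Fmo2 (7.78). Hamp and Hamp2 are among the 60 genes.

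The technical repeats show how far a second array of the same liver, from the other batch, moved the values. The SD over genes of second minus first array was 0.35 in WT 1 and 0.36 in KO 3. That difference carries the noise of both arrays and any batch effect. The SD among the animals of a genotype, within the first batch, had a median over genes of 0.18 in WT and 0.21 in KO. These measures are unlike and cannot be set against each other. KO 3 minus WT 1 had a correlation of 0.27 over 13871 genes between first and second arrays, which are of the same animals and differ in batch. Of the 1408 genes whose groups did not overlap, 47.3% kept their sign in the second arrays of this pair (49.3% of all genes). Of the 20 uncalled genes with the smallest p, 17 did. Among these 20, other than the genes above, were the DNA repair glycosylase Ung (0.70), the LysM domain gene Lysmd1 (0.96), osteoprotegerin (Tnfrsf11b, 0.71), Bcl6b (0.84), Armc9 (0.50), Sema4b (0.58) and Trav12-2 (0.84) with KO above WT, and H3c10 (−1.07), Spata1 (−0.75), Resf1 (−0.60), H2ab2 (−0.59) and 2810408I11Rik (−0.77) with KO below. None of these 12 was called (adjusted p between 0.198 and 0.336). Bcl6b and Spata1 turned sign in the second arrays. Of the 10 further genes named for the size of a non-overlapping difference, 5 kept their sign there. Depp1, induced by FOXO factors, was at 8.41, 9.17 and 7.06 in WT and 9.60, 9.29 and 9.62 in KO (1.29), the chemokine Cxcl1 had a difference of 0.96 and Il1b one of 0.90.

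Whether the genotype difference departed from that of the other strata was tested directly. The chow males were all in the second batch and the HFHS arrays used here in the first, so the diet interaction also spans the batches. With the second arrays of WT 1 and KO 3 added and batch as a term, limma called 0 genes for it too (619 at unadjusted p below 0.05). A batch term takes out only a shift shared by both genotypes. That fit therefore cannot tell diet from a genotype difference that varies with batch. The interaction of genotype with diet in males called 0 genes with limma (0%; 800 at unadjusted p below 0.05; smallest adjusted p = 0.718, Stx12), and that with sex on HFHS called 0 (0%; 717; smallest adjusted p = 0.205, C730027H18Rik). The estrogen sulfotransferase Sult1e1 differed by 0.53 in HFHS males, −0.04 in chow males and 3.37 in females, with an interaction with sex of −2.84 (adjusted p = 0.354). Differences of HFHS males and chow males had a correlation of −0.02 over the 13871 genes, and those of HFHS males and females one of 0.04, in which genes are not independent.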

How the data were processed

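Liver RNA was profiled on 22 single-colour arrays from 20 mice. The deposited values are log2 expression; per the submitters' processing notes they come from the robust multi-array average in affy 1.48.0 under R 3.4.3, which brings arrays to a shared distribution, and no value was transformed again. Of 25428 probe sets, 24704 gave 1 named gene, and those above the table median (4.57) in at least 3 arrays were tested. Limma 3.58.1 (R 4.3.3, with version 1.17.8 of the data.table package) fitted 1 array per animal, 20 in all, and estimated 6 group means (3 animals per HFHS group, 4 per chow group; male HFHS animals number 3, not 4, by their titles), so all groups share the spread. P-values are two-sided. RMA array values carry no read depth, and the number of animals limits the precision.

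Genes named were Nat1 to Nat3, the called genes, those with the smallest p up to 25, the 10 largest non-overlapping per direction, up to 4 members of a list by p, all members of 3 lipid lists, and neighbours of Nat2 within 5 Mb; predicted genes could be left out, and further list members, KO 3 genes and neighbours were chosen after their values were seen. Members and lists were chosen with earlier results of these data known. Gene positions were looked up by Entrez number in GRCm38.p6; promoters come from RefSeq. The fit was tested on simulated data. Alternatives were filters, quantile normalisation, a variance trend, fewer or more arrays, repeats averaged or swapped, a replicate block, and each animal left out. Figures used Python 3.11.15 and matplotlib 3.10.9.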

Additional observations from a re-analysis of the deposited data

How the results depend on the processing

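Against 5 genes called (2 higher, 3 lower), the count was 3 (1 higher) without a filter, 2 (0 higher) with the groups compared alone, 8 (5 higher) with all 22 arrays, a batch term and an animal block, 3 (1 higher) with technical repeats averaged, and 3 (1 higher) with the second arrays of WT 1 and KO 3, an alternative chosen after seeing the data. Without chromosome 8, also chosen then, 0 genes were called by limma (0 higher, 0 lower; 764 at unadjusted p below 0.05). A stricter filter gave 4, and quantile normalisation again and a variance trend gave 5. Nat2 and Bst2 were called in every one of these fits that held them. Leaving out 1 HFHS male gave 2 to 6 calls, 0 to 3 of them higher: 2 each without WT 1, WT 3, KO 2 or KO 3 (Nat2 and Bst2), 4 without WT 2 (Lysmd1 and Trav12-2 added) and 6 without KO 1 (Zfp963, Hamp, Isg20 and Gm16174 added). The interaction with diet called 0 to 1 genes when 1 male was left out (Hamp without KO 1), and that with sex 0 to 2 (C730027H18Rik without WT 1, Hamp and Gm16174 without KO 1, Sult1e1 and 2810039B14Rik without KO 2). The fit with a replicate block called 2 genes (0 higher), Nat2 and Bst2. The animals share only a number: same-numbered KO and WT deviations correlated at 0.02, −0.06 and 0.21. No called gene changed sign under any alternative. The precision is limited by 3 animals a group, and signals near the table median, such as those of Dcpp3 and Nat1, sit close to background.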
